A study of Mus musculus with 19 samples.

Results

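The genes described here encode tumour necrosis factor (TNF), its lymphotoxin relatives, the TNF receptors and the proteins that carry or limit their signal inside the cell. The 10 members (Tnf, Lta, Ltb, Tnfrsf1a, Tnfrsf1b, Tnfaip2, Tnfaip3, Traf1, Traf2 and Ripk1) were chosen by name and matched to their Ensembl identifiers, out of 56980 genes counted in 19 RNA-seq libraries. Each library came from the CD11b+ cells of 1 male mouse aged 3 to 4 months, collected by magnetic sorting (MACS) from the brain without the olfactory bulb and cerebellum. The mice were PARK7/DJ-1 KO animals, which carry a gene trap in Park7 on a C57BL/6NCrl background, or WT littermates, and they had received 4 µg/g body weight of lipopolysaccharide (LPS) or saline (PBS in the labels) i.p. 6 h earlier. There were 4 WT mice given PBS (WT PBS), 5 WT mice given LPS (WT LPS), 5 KO mice given PBS (KO PBS) and 5 KO mice given LPS (KO LPS). The comparisons asked how the members responded to LPS in each genotype, whether KO and WT cells differed with or without LPS, and whether the response itself differed.

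TNF is made as a membrane protein and released by the protease ADAM17. It binds TNFR1, encoded by Tnfrsf1a and present on most cells, and TNFR2, encoded by Tnfrsf1b and abundant on microglia and other immune cells. On TNFR1 the kinase RIPK1 and the adaptor TRAF2 build a ubiquitin-linked complex that activates NF-κB, while the ubiquitin-editing enzyme A20, encoded by Tnfaip3, limits that signal. Tnf, Tnfaip3, Tnfaip2 and Traf1 are classical targets of NF-κB, and LPS reaches NF-κB through its own receptor TLR4.

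The libraries held 11936364 to 22788884 counted reads, so that 3 reads corresponded to 0.138 to 0.256 CPM, the unit used here for read counts scaled by library size and TMM factor. Such a limit covers counting error only. Park7 was at 0.457 to 5.38 CPM in the 10 KO libraries and at 20.5 to 32.1 CPM in the 9 WT libraries, with no overlap. All 10 microglial markers were detected in each group, and their summed level was 24795 to 39808 CPM in the PBS libraries and 10624 to 17104 CPM in the LPS libraries. Neutrophil and monocyte markers summed to 36.5 to 203 CPM with PBS and 154 to 608 CPM with LPS. Oligodendrocyte markers stood at 6685 to 11223 CPM in 4 libraries (WT PBS 2, WT LPS 2, KO PBS 1 and KO LPS 1) and at 515 to 3910 CPM in the other 15, and values without these 4 libraries are given where they change a call.

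The ligand genes lie next to each other on chromosome 17 of GRCm39, with Ltb at chr17:35413382-35415296 on the plus strand, Tnf at chr17:35418357-35420983 on the minus strand and Lta at chr17:35422141-35424327 on the minus strand. Only 3060 bp separate Ltb from Tnf, and 1157 bp separate Tnf from Lta. The 250 bases before the start of the canonical GENCODE M39 transcript of Tnf and of Lta are shown because these neighbours had very different levels, and the stretch of Tnfaip3 because it held the single κB match among the members. All were read from GRCm39 on the gene's strand, 5′ to 3′. Capitals mark the letters TATAAA in Tnf and Lta and the κB match in Tnfaip3.
Tnf, chr17:35420984-35421233, minus strand: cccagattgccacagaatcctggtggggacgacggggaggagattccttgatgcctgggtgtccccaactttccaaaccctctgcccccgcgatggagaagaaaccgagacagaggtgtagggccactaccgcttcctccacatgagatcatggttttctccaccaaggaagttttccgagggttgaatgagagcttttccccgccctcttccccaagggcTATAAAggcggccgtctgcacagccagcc
Lta, chr17:35424328-35424577, minus strand: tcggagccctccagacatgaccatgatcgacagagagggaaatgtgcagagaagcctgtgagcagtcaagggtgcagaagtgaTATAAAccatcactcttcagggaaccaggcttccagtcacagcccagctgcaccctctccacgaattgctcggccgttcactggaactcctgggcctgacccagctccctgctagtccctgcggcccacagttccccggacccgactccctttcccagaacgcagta
Tnfaip3, chr10:18891264-18891293, minus strand: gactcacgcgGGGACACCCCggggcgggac
In Tnf the letters TATAAA ended 24 bases before the start, whereas in Lta they ended 162 bases before it. TATAAA, read on both strands, was found in 3 of the 10 member windows (Tnf, Lta and Tnfaip3), against 12% of 21631 windows of the same length before protein-coding genes. The consensus for NF-κB known as the κB motif, also read on both strands, was found in 1 member window, that of Tnfaip3 at 97 to 88 bases before the start of its canonical transcript, against 4.21% of all windows. Another annotated Tnfaip3 transcript starts farther upstream, so that both matches of Tnfaip3 lie within the annotated gene (chr10:18874201-18891405). The 2 searches gave no overlapping match in these genes, and a match describes letters only.

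Tnf rose strongly after LPS in both genotypes. It was at 49.4, 41.8, 48.2 and 53.5 CPM in the WT PBS libraries and at 627, 366, 624, 856 and 673 CPM in the WT LPS libraries. In KO cells it was at 38.3, 25.9, 57.1, 54.2 and 40.8 CPM with PBS and at 281, 1111, 590, 643 and 1149 CPM with LPS. Every LPS library lay far above every PBS library, and the KO LPS libraries were spread more widely than the WT LPS libraries, with the lowest and the highest value of Tnf both among them. The fold change was 13.04 in WT (95% interval 7.63 to 22.3, adjusted p = 2.04e-07 in edgeR) and 17.4 in KO (95% interval 10.6 to 28.7, adjusted p = 1.58e-08 in edgeR). In bulk RNA, as throughout these data, a change in the share of cells that express a gene and a change in RNA per cell cannot be told apart.

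The lymphotoxin genes stayed at low levels beside their neighbour. Lta, which encodes the secreted lymphotoxin-α, had 0 to 2 reads in the 9 PBS libraries and 0 to 5 reads in the 10 LPS libraries, so it lay at or near the limit of detection throughout, failed the low-count filter and was not tested. Ltb encodes the membrane-anchored lymphotoxin-β. It was at 2.60, 1.88, 2.49 and 2.60 CPM with PBS and 1.43, 1.58, 3.31, 2.08 and 1.53 CPM with LPS in WT. In KO its values were 2.698, 2.723, 3.349, 1.88 and 2.54 CPM with PBS and 1.24, 2.06, 1.25, 2.07 and 3.82 CPM with LPS. The groups overlapped in both genotypes, and the log2 fold change was -0.27 in WT (SE 0.33, adjusted p = 0.564 in edgeR) and -0.34 in KO (SE 0.31, adjusted p = 0.391 in edgeR). Per kilobase of transcript, Tnf stood at 14.99 ± 1.11 times Ltb in WT PBS (SD, n = 4) and at 253 ± 89.9 times in WT LPS (SD, n = 5), and at 12.7 ± 5.27 and 273 ± 96.2 times in KO PBS and KO LPS (SD, n = 5 each).

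**Figure D1:**
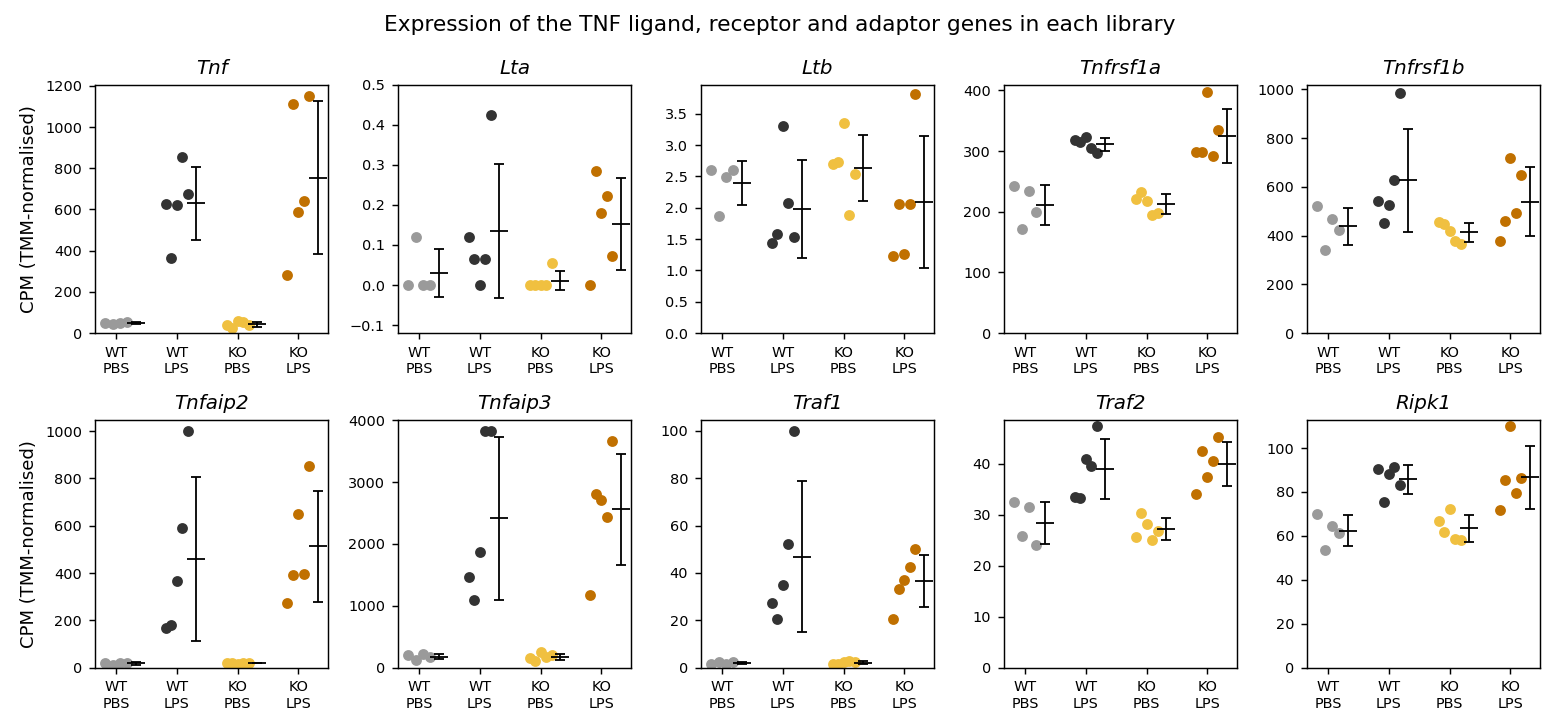
Each panel plots 1 member in CPM (vertical axis, own linear scale) for the 4 groups, with a point for each library and a bar for the mean and SD. Tnf, Tnfaip2, Tnfaip3 and Traf1 separate completely by treatment in both genotypes, Tnfrsf1a and Traf2 separate with a smaller difference, and Ltb and Tnfrsf1b overlap.

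The receptor genes moved little beside their ligand. Tnfrsf1a, at chr6:125325566-125339632, was at 242, 171, 233 and 199 CPM in WT PBS and at 318, 315, 324, 305 and 296 CPM in WT LPS. In KO it was at 221, 232, 217, 195 and 197 CPM with PBS and at 298, 299, 398, 292 and 335 CPM with LPS. The treatments did not overlap in either genotype, and Tnfrsf1a rose 1.47-fold in WT (95% interval 1.25 to 1.73, adjusted p = 0.00048 in edgeR) and 1.52-fold in KO (95% interval 1.31 to 1.78, adjusted p = 9.11e-05 in edgeR). The WT log2 fold change of 0.56 was close to the 0.5 needed for a call, and it was 0.45 without the 4 libraries of high oligodendrocyte markers, 0.49 with the stricter count filter and 0.49 without WT PBS 2.

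Tnfrsf1b, at chr4:144938938-144973477 and 6008102 bp from Park7 on the same chromosome, did not pass in either genotype. Its levels were 520, 340, 469 and 422 CPM in WT PBS and 544, 450, 525, 627 and 986 CPM in WT LPS. In KO they were 454, 449, 417, 380 and 365 CPM with PBS and 377, 460, 718, 493 and 649 CPM with LPS. The groups overlapped, and 1 library, WT LPS 5, stood well above the rest. The fold change was 1.43 in WT (95% interval 1.05 to 1.95, adjusted p = 0.0597 in edgeR) and 1.31 in KO (95% interval 0.977 to 1.74, adjusted p = 0.126 in edgeR). Without WT LPS 5, the library with the fewest counted reads, the WT log2 fold change went from 0.52 to 0.29 (adjusted p = 0.226 in edgeR). It became a call without WT LPS 2 (0.63, adjusted p = 0.0259 in edgeR), WT LPS 3 (0.59, adjusted p = 0.0492) or WT PBS 1 (0.61, adjusted p = 0.048). Without KO LPS 1 the KO value went from 0.39 to 0.51 (adjusted p = 0.0421 in edgeR), which made it a call, as did leaving out the 4 libraries of high oligodendrocyte markers (0.54).

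Set against each other per kilobase, the receptor genes were nearly level at PBS. The ratio of Tnfrsf1b to Tnfrsf1a was 0.915 ± 0.035 in WT PBS (SD, n = 4), 0.898 ± 0.336 in WT LPS, 0.859 ± 0.032 in KO PBS and 0.729 ± 0.115 in KO LPS (SD, n = 5 each). With PBS the ratio was tight, and with LPS it ran from 0.634 to 1.47 in WT and from 0.560 to 0.858 in KO. The WT upper end was WT LPS 5 alone, with the other 4 WT LPS libraries at 0.634 to 0.910. Which receptor gene came first depended on the transcript length used, since dividing by all annotated exons in place of the canonical transcript placed Tnfrsf1b first in each group.

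The inhibitor A20 and the target genes rose by as much as Tnf or more in WT. In WT PBS Tnfaip3 was at 205, 129, 217 and 176 CPM, and in WT LPS at 1464, 1090, 1877, 3819 and 3822 CPM. In KO it was at 156, 115, 247, 172 and 209 CPM with PBS and at 1174, 2809, 2713, 2439 and 3658 CPM with LPS. The lowest LPS library lay far above the highest PBS library, and within each LPS group the libraries spanned about the same distance. Tnfaip3 rose 13.3-fold in WT (95% interval 7.30 to 24.2, adjusted p = 7.11e-07 in edgeR) and 14.2-fold in KO (95% interval 8.24 to 24.6, adjusted p = 1.32e-07 in edgeR).

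Tnfaip2, at chr12:111408858-111421452, encodes a TNF-induced protein linked to exocytosis and membrane protrusions. Its levels were 21.2, 11.4, 21.3 and 18.97 CPM in WT PBS and 167, 181, 366, 589 and 999 CPM in WT LPS. In KO they were 19.7, 21.4, 16.9, 20.8 and 22.1 CPM with PBS and 275, 390, 650, 396 and 852 CPM with LPS. The PBS libraries lay close together while the WT LPS libraries were the most dispersed of any member's group relative to its mean apart from Lta. Tnfaip2 rose 25.2-fold in WT (95% interval 12.03 to 52.8, adjusted p = 6.33e-07 in edgeR) and 25.4-fold in KO (95% interval 12.99 to 49.7, adjusted p = 1.42e-07 in edgeR), which moved it from percentile 53.5 to percentile 98.0 of the tested genes by level per kilobase in WT.

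The adaptors split by kind. Traf1, at chr2:34831762-34851837, encodes an inducible adaptor that lacks the RING domain of other TRAF proteins. It was at 1.67, 2.54, 1.64 and 2.23 CPM in WT PBS and at 27.3, 20.6, 34.8, 52.2 and 99.7 CPM in WT LPS. In KO it was at 1.78, 1.48, 2.28, 2.88 and 2.43 CPM with PBS and at 20.4, 33.3, 36.9, 42.5 and 50.04 CPM with LPS. It was scarce in every PBS library and clearly present in every LPS library, with a rise of 23.1-fold in WT (95% interval 12.3 to 43.6, adjusted p = 1.37e-07 in edgeR) and 16.8-fold in KO (95% interval 9.60 to 29.5, adjusted p = 8.47e-08 in edgeR).

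Traf2, at chr2:25406097-25436987, encodes a widely expressed adaptor that TRAF1 can pair with. It was at 32.5, 25.8, 31.5 and 24.2 CPM in WT PBS and at 33.5, 33.2, 40.9, 39.7 and 47.5 CPM in WT LPS. In KO it was at 25.7, 30.3, 28.3, 25.0 and 26.8 CPM with PBS and at 34.1, 42.5, 37.5, 40.7 and 45.4 CPM with LPS. The treatments did not overlap, yet the gap between the nearest WT libraries was narrow. The log2 fold change was 0.45 in WT (SE 0.13, adjusted p = 0.00757 in edgeR), which is under the fold needed for a call, and 0.56 in KO (SE 0.12, adjusted p = 0.00077 in edgeR), which is a call. The WT value was also a call without WT LPS 1 (0.50), WT LPS 2 (0.52), WT PBS 1 (0.52) or WT PBS 3 (0.50), so the calls do not set the genotypes apart. The ratio of Traf1 to Traf2 per kilobase went from 0.066 ± 0.0228 in WT PBS (SD, n = 4) to 1.02 ± 0.532 in WT LPS (SD, n = 5), and from 0.0725 ± 0.0221 in KO PBS to 0.809 ± 0.187 in KO LPS (SD, n = 5 each), with WT LPS 5 the highest at 1.88 and the other 4 WT LPS libraries at 0.556 to 1.18.

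**Figure D2:**
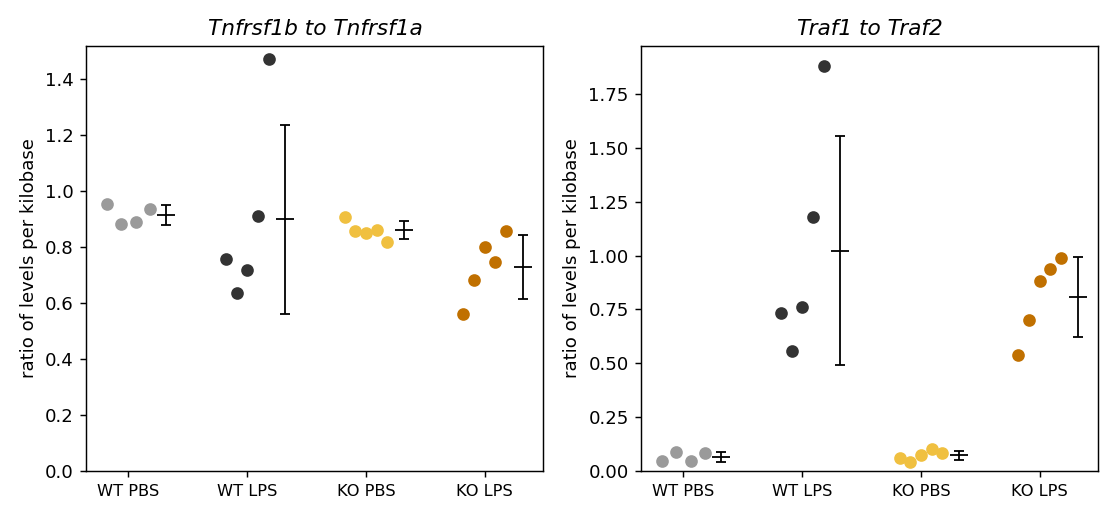
Ratios of levels per kilobase of canonical transcript (vertical axes, linear from 0) for Tnfrsf1b to Tnfrsf1a and Traf1 to Traf2, with a point for each library and a bar for the mean and SD in the 4 groups. The receptor ratio stays between 0.560 and 1.47 in all libraries, while the Traf1 to Traf2 ratio is at most 0.103 in the PBS libraries and at least 0.536 in the LPS libraries.

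Ripk1, at chr13:34186141-34221130, was at 70.0, 53.6, 64.7 and 61.4 CPM in WT PBS and at 90.6, 75.5, 88.0, 91.2 and 83.0 CPM in WT LPS. In KO it was at 66.9, 61.6, 72.1, 58.4 and 58.1 CPM with PBS and at 71.9, 85.5, 110, 79.6 and 86.5 CPM with LPS. The WT treatments did not overlap, and the KO treatments overlapped through KO LPS 1 alone. Its log2 fold change was 0.46 in WT (SE 0.12, adjusted p = 0.00366 in edgeR) and 0.45 in KO (SE 0.11, adjusted p = 0.0021 in edgeR), both under the fold needed for a call, and the KO value was a call without KO LPS 1 (0.53) or KO PBS 3 (0.51). Ripk1 shares 511 exonic bp with the pseudogene Gm17084 on its own strand and 241 exonic bp with Serpinb6a on the other. Ltb, Tnfaip2, Traf1, Tnfrsf1b and Tnfaip3 share 354, 686, 349, 184 and 110 exonic bp with non-coding genes on the opposite strand, Tnfrsf1a shares 19 with Plekhg6 there, and a strand setting for the counting is not given in the sources used here.

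**Figure D3:**
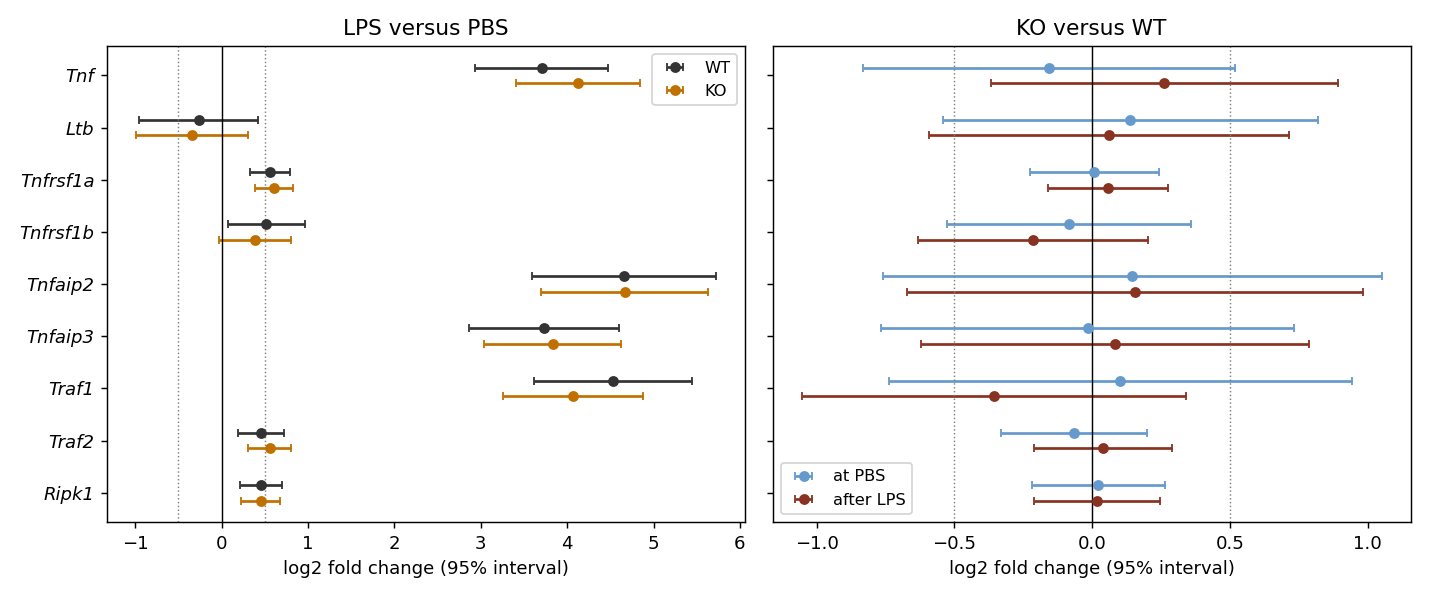
Log2 fold changes (horizontal axes) of the 9 tested members with 95% intervals, on the left for LPS against PBS in WT and KO and on the right for KO against WT at PBS and after LPS, with dotted lines at the 0.5 needed for a call. Tnf, Tnfaip2, Tnfaip3 and Traf1 lie between 3.70 and 4.67 on the left, and all intervals on the right include 0.

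In all, LPS raised 5 of the 9 tested members in WT, when 18.4% of all 18739 tested genes were called higher, and 6 of 9 in KO, when 20.1% were. None was called lower in either genotype in edgeR or DESeq2, against 17.4% and 19% of all genes called lower in edgeR. No member had an unadjusted p under 0.05 in that direction in edgeR. The treatments did not overlap, with LPS higher, for 7 members in WT (20.8% of all genes) and 6 in KO (16.2%). The median log2 fold change of the tested members was 0.56 in WT and 0.61 in KO, against -0.06 and -0.01 over all tested genes. The WT count was 8 without WT LPS 2 and 8 without WT PBS 1, where Tnfrsf1b, Traf2 and Ripk1 were also called. After LPS, 6 of the 10 neutrophil and monocyte markers were called higher in WT and 7 in KO, none of the 10 was at 0 throughout a group, and 9 of 10 microglial markers were called lower in each genotype. Their part in the rise of the members was not tested.

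By level per kilobase, the order in WT PBS was Tnfrsf1a and Tnfrsf1b (97.2 ± 14.96 and 89.1 ± 15.5 CPM per kilobase, SD, n = 4), then Tnf and Tnfaip3 (29.4 ± 2.95 and 26.3 ± 5.71), Ripk1 and Traf2 (9.27 ± 1.02 and 9.25 ± 1.34), Tnfaip2 (4.79 ± 1.22), Ltb (1.98 ± 0.289), Traf1 (0.588 ± 0.129) and Lta (0.0219 ± 0.0438). By canonical transcript length, neighbours within each of the named pairs did not differ beyond their spread. Divided by all annotated exons, Tnfrsf1b stood at 88.5 and Tnfrsf1a at 67.2 CPM per kilobase. On that length Tnf stood at 29.4 and Tnfaip3 at 18.7, and Ripk1 at 5.68 and Traf2 at 3.71. In WT LPS, Tnf and Tnfaip3 came first (384 ± 107 and 350 ± 190, SD, n = 5), and Tnfrsf1a, Tnfrsf1b and Tnfaip2 followed at 143 ± 4.97, 128 ± 42.8 and 121 ± 91.0, which overlapped. Traf1, Ripk1 and Traf2 then stood together at 13.7 ± 9.25, 12.7 ± 0.97 and 12.6 ± 1.92, with Ltb at 1.64 ± 0.645 and Lta at 0.0977 ± 0.121. The order in KO PBS was that of WT PBS by canonical length. By all annotated exons, Traf2 and Tnfaip2 changed places, at 3.71 and 3.62 in WT PBS and 3.54 and 4.01 in KO PBS. In KO LPS, Tnf (460 ± 226, SD, n = 5) and Tnfaip3 (370 ± 130) again led, Tnfrsf1a (149 ± 20.4), Tnfaip2 (135 ± 61.5) and Tnfrsf1b (110 ± 28.6) followed, and Traf2, Ripk1 (12.9 ± 2.12) and Traf1 (10.7 ± 3.22) lay within their spread of each other.

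KO and WT cells did not differ detectably in any member. After LPS, 0 of the 9 tested members passed the threshold (unadjusted p under 0.05 and a log2 fold change of at least 0.5), against 1.31% of all tested genes, and 0 had an unadjusted p under 0.05 in edgeR, with 0 called in DESeq2 as well. By unadjusted p alone, 226 genes were higher and 256 lower of all 18739 tested. A count of 0 among 9 members is near these shares. No member separated KO LPS from WT LPS, against 0.219% of all genes. Tnf was 1.20 times as high in KO as in WT after LPS, with a 95% interval of 0.775 to 1.86. For Tnfaip3 the ratio was 1.06 (0.650 to 1.73), for Tnfaip2 1.11 (0.628 to 1.98) and for Traf1 0.781 (0.482 to 1.27), and all 4 of these intervals were wide. The intervals were narrower for the steadily expressed genes, at 1.04 (0.894 to 1.21) for Tnfrsf1a, 1.03 (0.864 to 1.22) for Traf2 and 1.01 (0.864 to 1.19) for Ripk1. Tnfrsf1b stood at 0.861 (0.645 to 1.15) and Ltb at 1.04 (0.663 to 1.64).

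These estimates leaned on single libraries. Without WT LPS 5, the log2 difference of KO from WT after LPS went from -0.36 to 0.12 for Traf1, from 0.16 to 0.66 for Tnfaip2 and from -0.22 to 0.01 for Tnfrsf1b, and none was a call. That of Tnf, 0.26 with all libraries, ranged from 0.06 without KO LPS 5 to 0.47 without KO LPS 1 (unadjusted p = 0.845 and 0.0754 in edgeR). Without KO LPS 2 or WT LPS 2 it was 0.08 and 0.12. KO LPS 1 and WT LPS 2 held 11223 and 6685 CPM of oligodendrocyte markers, the highest sums of their groups, and were the lowest of their groups in Tnf, Tnfaip3, Traf1, Traf2, Ripk1 and Tnfrsf1b. For Tnfaip2, KO LPS 1 was the lowest in KO, but in WT it was WT LPS 1 (167 CPM), just under WT LPS 2 (181 CPM). Ltb was likewise lowest in KO LPS 1 in KO and in WT LPS 1 in WT (1.43 CPM, against 1.58 CPM in WT LPS 2). Tnfrsf1a was lowest in other libraries, KO LPS 4 (292 CPM, against 298 CPM in KO LPS 1) and WT LPS 5 (296 CPM, against 315 CPM in WT LPS 2), and Lta, at 0 to 5 reads, could not be ranked. Without the 4 libraries of high oligodendrocyte markers, the KO difference after LPS was 0.33 for Tnf, 0.08 for Tnfaip3 and -0.39 for Traf1, and again 0 members passed. KO LPS 1 was also the highest of its group in astrocyte, endothelial and neuron markers (4234, 685 and 149 CPM). In neutrophil and monocyte markers it was the lowest (154 CPM). WT LPS 4 held more astrocyte markers (2171 CPM) than WT LPS 2 (2060 CPM) and had the highest Tnf of its group. The part of any of these cells in the members' values was not tested.

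**Figure D4:**
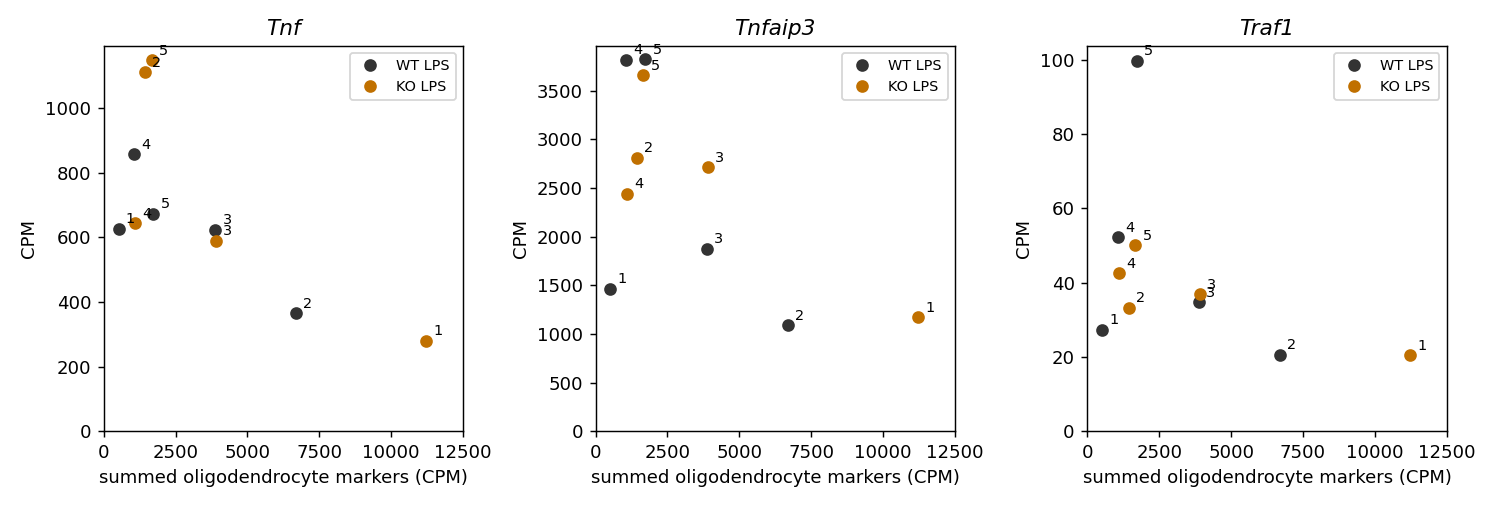
Levels of Tnf, Tnfaip3 and Traf1 (vertical axes, CPM from 0) against the summed level of 5 oligodendrocyte markers (horizontal axes, CPM) in the 10 LPS libraries, each numbered by its replicate. KO LPS 1 and WT LPS 2 lie at 11223 and 6685 CPM of markers and are the lowest of their groups in all 3 genes. A link between the markers and the genes was not tested.

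With PBS, 0 of 9 members passed in KO against WT (0.8% of all genes did) and 0 had an unadjusted p under 0.05 in edgeR, with 0 in DESeq2. A count of 0 among 9 members is near that share. No member separated the genotypes, against 0.971% of all genes. The largest log2 difference at PBS was that of Tnf, at -0.16, or a ratio of 0.897 (0.562 to 1.43). With single libraries left out, this difference ran from -0.268 to -0.0185. The remaining ratios lay between 0.943 for Tnfrsf1b (0.694 to 1.28) and 1.11 for Tnfaip2 (0.591 to 2.07). The interaction, which asks whether the LPS response differed by genotype, was called for 0 members and for 0% of all genes in edgeR. None of the 9 members had an unadjusted p under 0.05 there, against 0.961% of all genes, and DESeq2 called 0 members. Its extremes were Tnf at 0.42 (SE 0.44) and Traf1 at -0.46 (SE 0.52) on the log2 scale. Leaving out single libraries gave 0.217 to 0.620 for Tnf and -0.654 to 0.0163 for Traf1.

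The genes with the closest pattern were sought by the mean absolute difference of centred log2 CPM over the 19 libraries. Tnf lay nearest to Tnfsf9 (0.26), which encodes the TNF relative 4-1BB ligand, then to Gadd45b (0.27) and Socs3 (0.28), against a median of 1.96 over all tested genes. For Tnfaip3 the nearest were Dusp2 (0.18), Tnfsf9 (0.20) and Gadd45b (0.22), so 2 of its 3 were shared with Tnf. For Tnfaip2 they were Tlr2 (0.24), Cd274 (0.29) and Gpr84 (0.31), and for Traf1 they were Bcl2a1d (0.23), Cd44 (0.24) and Slc39a14 (0.27), where Bcl2a1d has near-identical copies that could share its reads. Tnfrsf1a lay nearest to Tpm3 (0.07) and Ltbr (0.07), the lymphotoxin-β receptor gene, and Tnfrsf1b to Syk (0.11) and Hs6st1 (0.12).

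The wider pathway was followed in 8 lists of 93 other genes, 85 of them tested. LPS raised 34 and lowered 13 in WT, or 40% and 15.3%, when 18.4% and 17.4% of all tested genes were called, and raised 36 and lowered 11 in KO, or 42.4% and 12.9%, when 20.1% and 19% were. The lowered share in WT was near that over all genes and the one in KO was below it, and neither difference was tested. Of the tested list genes, 33 were higher and 11 lower in both genotypes. KO against WT gave 1 call after LPS, or 1.18% against 1.31% of all genes, and 0 at PBS against 0.8%, so neither count stood above that over all genes.

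In the receptor complex and its kinases, 5 of 17 genes rose and 1 fell in each genotype, with a median log2 fold change of 0.29 in WT and 0.31 in KO. Ikbke, which encodes the kinase IKKε, went from 2.79 ± 0.635 CPM (SD, n = 4) to 158 ± 73.0 CPM (SD, n = 5) in WT, and its log2 fold change was 5.82 in WT and 5.21 in KO. Birc3, which encodes the ubiquitin ligase cIAP2 recruited through TRAF2, had log2 fold changes of 2.30 and 2.54. Traf5, a relative of Traf2, fell by 0.60 and 0.67 on the log2 scale. Among the deubiquitinases and A20 partners, 6 of 11 rose and 0 fell in each genotype (median 0.79 in WT and 0.70 in KO), led by the A20-binding Tnip3 (2.95 in WT and 3.17 in KO) and Tnip1 (2.84 in both).

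In the death complex, which forms when the receptor complex disassembles, 3 of 5 rose in each genotype (median 1.02 in WT and 0.97 in KO), and Casp8, named here after its value was seen, was called lower in WT at -0.56 and stood at -0.47 in KO, with no call for the interaction. Mlkl, which encodes the executor of necroptosis, went from 1.00 ± 0.144 to 12.5 ± 3.81 CPM in WT, with log2 fold changes of 3.63 and 2.89 in KO, and Ripk3, its upstream kinase, had 1.95 and 1.99. Among the genes for shedding and lymphotoxin receptors, 3 of 6 rose and 0 fell in each genotype (median 0.37 in WT and 0.47 in KO). Rhbdf2, which encodes the carrier of ADAM17, had log2 fold changes of 2.45 and 2.58, and Adam17 itself 0.71 and 0.68.

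Of 9 other TRAF genes, 3 rose and 1 fell in each genotype (median 0.43 in WT and 0.33 in KO), among them Traf3 (1.14 and 1.20), Tifa (0.67 and 0.77) and Traf3ip3 (-1.05 and -1.20). Of 6 other Tnfaip genes, 2 rose in WT and 3 in KO, and 1 fell in each (median 0.46 and 0.74). Tnfaip8 had log2 fold changes of 0.88 and 1.02, Tnfaip8l3 2.04 and 1.46 at low levels, and Tnfaip8l2 -1.05 and -1.22. These families share a name with the members and did not move as 1 block.

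Of 15 other TNF superfamily ligands, 10 were tested, and 4 rose and 4 fell in WT while 4 rose and 3 fell in KO (median -0.34 and -0.14). Tnfsf9 went from 2.67 ± 0.877 to 33.0 ± 14.3 CPM in WT, with log2 fold changes of 3.62 and 4.04, and Tnfsf15 from 0.026 to 1.06 CPM, so near the limit of detection at PBS that its fold is not given. Tnfsf12, which encodes TWEAK, fell by 1.33 and 1.75 on the log2 scale. Tnfsf18 fell too, from 1.12 to 0.27 CPM in WT and from 1.40 to 0.187 CPM in KO. With LPS it lay near the limit of detection, so its fold is not given. Of 24 other receptors, 21 were tested, and 8 rose and 5 fell in WT while 9 rose and 5 fell in KO (median 0.24 and 0.48). Cd40 had log2 fold changes of 4.90 and 4.86. Tnfrsf17, a receptor of B-lineage cells, went from 7.85 ± 1.21 to 0.184 ± 0.242 CPM in WT and Tnfrsf19 from 30.8 ± 16.7 to 7.93 ± 4.66 CPM, and both fell in KO too. The summed B cell markers were at 8.65 to 12.6 CPM in the PBS libraries and at 1.73 to 5.72 CPM in the LPS libraries. Cd79b made up most of that sum, at 9.26 ± 2.28 CPM in WT PBS and 2.03 ± 1.32 CPM in WT LPS, while 6 of the 8 markers failed the low-count filter, and Cd79a was at 0.031 CPM in WT PBS and 0.41 CPM in WT LPS. The part of B-lineage cells in the Tnfrsf17 value was not tested.

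The single KO call of the lists was Tnfrsf9, which encodes the receptor of the Tnfsf9 product. It was at 16.6 ± 8.39 CPM in WT LPS and 1.29 ± 1.17 CPM in KO LPS (SD, n = 5 each), with a log2 difference of -3.67 (SE 0.53, adjusted p = 0.0129 in edgeR), while its interaction was -1.83 (SE 1.31, adjusted p = 1.00 in edgeR). Tnfrsf9, at chr4:150999019-151030559, begins 115 bp from Park7, the gene that carries the trap, so an effect of the altered locus on its neighbour and an effect of DJ-1 loss cannot be told apart. Of the 10 T and NK cell markers 4 were tested, with a median log2 difference of KO from WT after LPS of -1.25. Ncr1 was called lower (-1.63, unadjusted p = 0.0277 in edgeR) but did not pass by adjusted p. It was at 0.66 CPM in WT LPS and 0.21 CPM in KO LPS, near the limit of detection. Nkg7 (-1.29) and Gzma (-1.21) were lower without a call, and Lck stood at 0.07. Their summed level was 3.57 to 11.8 CPM in WT LPS and 3.08 to 5.14 CPM in KO LPS, and their part in the Tnfrsf9 value was not tested. The list holding Tnfrsf9 was chosen with this result known.

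**Figure D5:**
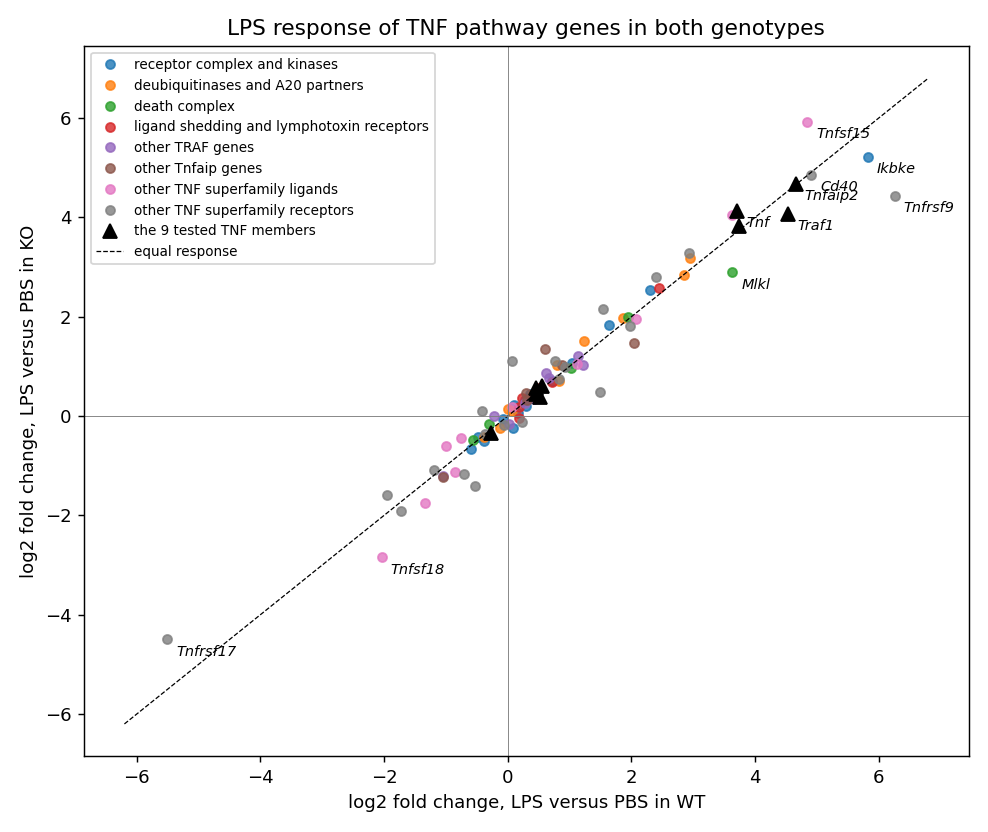
Log2 fold changes of LPS against PBS in WT (horizontal axis) and KO (vertical axis) for the 9 tested members (black triangles) and the 85 tested genes of the 8 lists (coloured points), with a dashed line of equal response. Tnf, Tnfaip2, Tnfaip3 and Traf1 lie close to that line in the upper right, Ltb lies just below 0, and Tnfrsf9 lies below the line at 6.26 in WT and 4.43 in KO, from PBS levels near the limit of detection.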

How the data were processed

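Per the labels and the study's methods, ribosomal RNA was depleted, stranded libraries were sequenced, and reads were trimmed (cutadapt) before alignment and counting with STAR 2.7.9a on GRCm39. The authors deposited raw gene counts without normalization. GENCODE M39 named 56236 of the 56980 genes and gave coordinates and canonical transcript lengths. Genes were filtered with filterByExpr (minimum count 10), which left 18739, and were fitted with edgeR 4.0.16 (R 4.3.3, TMM, quasi-likelihood) in 1 model of 19 libraries and 4 groups, with Benjamini-Hochberg adjustment. LPS calls used an adjusted p under 0.05, KO against WT calls an unadjusted p under 0.05, both with |log2FC| of at least 0.5, as in the study's methods, and the interaction an adjusted p under 0.05. The SE was the log2 fold change divided by the square root of F. Alternatives were DESeq2 1.42.0, other filters and scaling, the replicate block and each library left out. The members and lists were chosen with earlier results of these data known. Named list genes were up to 2 per direction with the largest WT change among those called in both genotypes. The scripts were tested on simulated data. No libraries of a group agreed within sampling noise (smallest chi-square per degree of freedom 6.50), so each counted as 1 replicate.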

Additional observations from a re-analysis of the deposited data

Results flagged for a closer look

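In 1 of 36 groups of a member's values examined, a library stood apart by Dixon's test: Ltb in WT PBS 2 was at 1.88 CPM, from 31 reads, against 2.49 to 2.60 CPM in the other 3 WT PBS libraries. Chance marks about 1 in 20 such groups. WT PBS 2 is also 1 of the 4 libraries with high oligodendrocyte markers (9662 CPM), and the part of this in the Ltb value was not tested.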

How the results depend on the processing

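Tnf, Tnfaip2, Tnfaip3 and Traf1 were called higher after LPS in both genotypes under every alternative, and 0 members were called lower or between genotypes under any. The number of members called higher was 4 to 8 in WT and 6 to 8 in KO when each library was left out, and 4 to 7 and 6 to 8 under the other settings. Without the fold threshold, Traf2 (0.45) and Ripk1 (0.46) in WT and Ripk1 (0.45) in KO were also called, and without the 4 libraries of high oligodendrocyte markers, a setting chosen after seeing the data, Tnfrsf1b (0.54) and Ripk1 (0.54) in KO were. Not every pair of same-numbered libraries correlated above 0.1, so the replicate numbers were not taken to pair them. The correlations ran from -0.04 to 0.58 between treatments in WT and from 0.03 to 0.54 in KO, and from -0.57 to 0.30 between genotypes. In each genotype the libraries of high oligodendrocyte markers share a number. With the number as a block 5 members were called higher in WT and 6 in KO.

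Some uncalled differences, most of them near 0, changed sign, and the cause was not tested. At PBS, the KO difference of Tnfrsf1a was -0.0222 with no filter, -0.0215 with at least 10 counts in every sample, -0.011 with DESeq2 size factors, -0.0109 in DESeq2 and -0.124 without the 4 libraries. That of Ripk1 was -0.00501, -0.00579 and -0.0914 with no filter, the stricter filter and without the 4 libraries, that of Traf1 -0.114 with the replicate block, and that of Tnfaip2 -0.0407 without the 4 libraries. The interaction of Ripk1 was 0.00745, 0.0138, 0.0268, 0.0267 and 0.128 under the same 5 settings as Tnfrsf1a, and without the 4 libraries that of Ltb was 0.126 and of Tnfrsf1b 0.0491. With single libraries left out, log2 differences of KO from WT after LPS ranged as follows: Tnf 0.06 to 0.473, Ltb -0.267 to 0.326, Tnfrsf1a -0.0262 to 0.0949, Tnfrsf1b -0.34 to 0.00851, Tnfaip2 -0.105 to 0.656, Tnfaip3 -0.0994 to 0.311, Traf1 -0.543 to 0.118, Traf2 -0.0116 to 0.121, Ripk1 -0.083 to 0.0836. At PBS the ranges were Tnfrsf1a -0.0755 to 0.0798, Tnfrsf1b -0.182 to 0.00983, Tnfaip2 -0.0176 to 0.229, Tnfaip3 -0.149 to 0.108, Traf1 -0.0214 to 0.237, Traf2 -0.125 to 0.00473, Ripk1 -0.0384 to 0.0835, and for the interaction Ltb -0.406 to 0.18, Tnfrsf1a -0.034 to 0.134, Tnfrsf1b -0.256 to 0.0932, Tnfaip2 -0.251 to 0.511, Tnfaip3 -0.092 to 0.328, Traf1 -0.654 to 0.0163, Ripk1 -0.105 to 0.0575.

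Counts over all genes of KO against WT moved more. After LPS, 102 genes were higher and 143 lower, and these were 347 and 507 with no filter, 42 and 69 with the stricter filter, 36 and 69 with only the groups compared, 226 and 256 with no fold threshold, and 0 and 2 by adjusted p. At PBS, 150 genes were called, 42 of them higher, and the higher and lower genes became 241 and 439, 6 and 52, and 0 and 1 with no filter, the stricter filter and adjusted p, the lower genes 189 with the replicate block, and the higher genes 73 with no fold threshold and 80 without the 4 libraries. Single libraries also moved these counts: after LPS, 204 were higher without KO LPS 1, and 164 higher and 270 lower without KO LPS 5. At PBS, 94 were higher without WT PBS 2, 72 higher and 67 lower without WT PBS 4, and 67 lower without KO PBS 3. At this depth Lta, at 0 to 5 reads, could not be compared.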
